A study of Mus musculus with 4 samples.

Results

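The difference of the LPS responses between 2 genotypes of mouse macrophages was measured gene by gene. LPS (lipopolysaccharide, a component of the outer membrane of Gram-negative bacteria) was the stimulus. For each gene the log2 response to LPS in wild type (WT) was subtracted from the response in the libraries labelled Sema6D-/-, a genotype named for the loss of semaphorin 6D. The members were the protein-coding autosomal genes that reached 5 FPKM (sequenced fragments divided by transcript length and library size) in any library. They numbered 7582 of 19603 protein-coding autosomal genes and of 24216 genes in all. Of these, 5874 reached 5 FPKM in every library and 427 in 1 library only. Membership did not use the difference of the responses itself.

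All cells were macrophages grown with M-CSF from bone marrow of 7-week-old C57BL/6 mice. The 4 groups were WT without LPS, WT with LPS, labelled Sema6D-/- without LPS and labelled Sema6D-/- with LPS, with LPS given at 100 ng/ml for 4 h. The sample titles separate stimulated from unstimulated cells, whereas the treatment text names LPS for every sample, so cells titled "non" were taken as unstimulated. Each group was 1 library, the number of mice behind it is not stated in the labels, and neither is the deleted part of the gene. No difference below therefore has a replicate check, no test between groups was run, and all values describe these 4 libraries.

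LPS is sensed by TLR4, which signals through MyD88 to NF-kB and MAP kinases and through TRIF to IRF3 and interferon beta. NF-kB and AP-1 drive inflammatory cytokines, chemokines and prostaglandin enzymes, and interferon acting back on the cells induces antiviral genes, guanylate-binding proteins and the chemokine Cxcl10. Semaphorin 6D is a transmembrane guidance protein that binds class A plexins. A gap between responses can arise because genotypes differ with LPS, because they differ before LPS, or both. In log2 units the difference of the responses equals the genotype difference with LPS (the LPS-level difference) minus the genotype difference without LPS (the baseline difference). These parts come from separate library pairs and are given side by side throughout.

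Assigned fragments, inferred from the spacing of low FPKM values, came to 17.0 to 23.2 M per library. Sema6d itself was at 0.304 FPKM (57 fragments) in WT without LPS, 0.219 (20) in WT with LPS, and 0.563 (78) and 0.592 (59) in the libraries labelled Sema6D-/-. It was thus not lower there, and every genotype direction below rests on the labels. Xist, the RNA that silences the second X chromosome in female cells, was at 22.3 and 21.4 FPKM in WT and at most 0.0333 in the libraries labelled Sema6D-/-, so sex and genotype cannot be told apart. All 10 macrophage markers were detected, with summed FPKM of 17593 to 24865. Neutrophil markers (11 of 12 at 1 FPKM or more) summed to 908 and 1384 in WT without and with LPS and to 295 and 467 in the libraries labelled Sema6D-/-. Monocyte and progenitor markers (6 of 8) summed to 173 and 339 in WT and to 268 and 550. Dendritic cell markers (3 of 8, Cd209a below 0.1) summed to 1.73 and 4.91 in WT and to 9.58 and 24.7. Neutrophil markers were thus lower, and monocyte and dendritic cell markers higher, under the Sema6D-/- label in both states. Lymphocyte markers (2 of 11 at 1 FPKM or more) were lower there, at 15.2 and 10.2 in WT and 5.27 and 3.36, with Cd3e, Ncr1 and Gzma below 0.1 everywhere. Erythroid and megakaryocyte markers (2 of 8, with Hba-a1, Hbb-bt and Klf1 below 0.1) summed to 80.4 to 106 FPKM. Mast cell and basophil markers (1 of 6) and stromal markers (3 of 10) summed to 0.573 to 3.17 and 2.87 to 8.38. The part of other cell types in the differences was not tested, and in bulk RNA fewer cells of a type and less RNA per cell cannot be told apart.

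Most members responded to LPS alike in both genotypes. A higher difference below means a response more upward, or less downward, under the Sema6D-/- label, and a lower one the reverse, so a gene that LPS lowered further has a lower difference. On the deposited scale higher differences outnumbered lower ones, an order that turned after rescaling to a common FPKM total. The middle 90% of members had a difference of responses between -0.58 and 0.59, with a median of 0.01. A difference of 2-fold or more (log2 of 1) was reached upward by 114 members (1.50%) and downward by 62 (0.818%), 2.32% in all. In each genotype alone, LPS levels were 2-fold or more higher for 965 members in WT (12.7%) and for 1238 in the libraries labelled Sema6D-/- (16.3%). They were lower for 349 (4.60%) and 607 (8.01%). The split of the 176 differences depends on scaling. When every library was rescaled to a common FPKM total, which moved the median difference from 0.01 to -0.20, 54 members were higher and 136 lower, and all 54 and all 62 of the original lower members were among them.

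**Figure D1:**
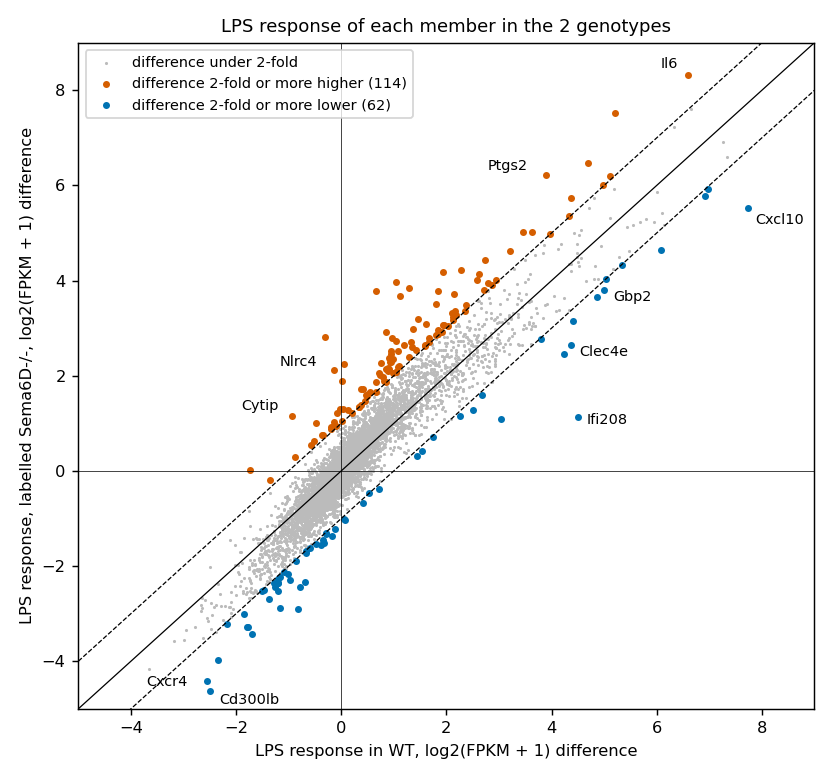
LPS response in WT (x axis) against the response in the libraries labelled Sema6D-/- (y axis), each as a difference of log2(FPKM + 1), with 1 point per member and 1 library per group. The solid line marks equal responses and the dashed lines a 2-fold difference; 114 members lie above the upper dashed line and 62 below the lower one, counts that become 54 and 136 after rescaling to a common FPKM total.

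On the deposited scale the members were next sorted by the mean of their 2 LPS responses. That mean contains the response under the Sema6D-/- label, which also enters the gap. Nothing is therefore drawn from how the sorting and the direction of the gap go together. Among 1105 members with a mean LPS response of 2-fold or more upward, 89 (8.05%) responded more under the Sema6D-/- label and 18 (1.63%) responded less. The 89 were modestly induced in WT, with a median log2 response of 1.41 against 2.87 under the Sema6D-/- label. The 18 were strongly induced in WT, at 4.45 against 2.96. Among 458 members with a mean response of 2-fold or more downward, 30 (6.55%) were lowered further in the libraries labelled Sema6D-/- (median -2.44, against -1.20 in WT) and 0 were lowered less. On this scale responses past the size rule were more often larger than smaller under the Sema6D-/- label, both among raised and among lowered genes. However, 26 members past the rule, Il12a and Ptx3 among the 89, reached 5 FPKM only in the library labelled Sema6D-/- with LPS. They entered through that level, so nothing is drawn from the excess among raised genes. The other 6019 members contributed 25 higher and 14 lower differences. After rescaling to a common total the counts became 35 raised more, 35 raised less, 85 lowered further and 1 lowered less.

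The gap was split by the share that the LPS-level difference made of it. A share within 0.25 of 1 was read as an LPS-level pattern and a share within 0.25 of 0 as a baseline pattern. In between, the genotypes differed in opposite directions without and with LPS. Beyond these limits they differed in the same direction in both states, more with LPS or more without. Of the 114 higher differences 44 were LPS-level, 28 opposite in the 2 states, 28 same-direction and larger with LPS, 9 baseline and 5 same-direction and larger without LPS. Of the 62 lower differences the same patterns held 16, 20, 2, 8 and 16.

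The parts also differed in size. Of the 114, the LPS-level difference alone was 2-fold or more for 71 and the baseline difference for 18. Of the 62, these numbers were 21 and 23. For comparison, across all members the genotypes differed 2-fold or more without LPS for 193 members upward (2.55%) and 127 downward (1.68%), and with LPS for 225 (2.97%) and 203 (2.68%), in all 4.22% without and 5.64% with LPS. Across the 7582 genes the baseline and LPS-level differences, which share no library, had a Pearson r of 0.70 and a Spearman rank correlation of 0.59, as a description over genes that are not independent replicates. The members at the limit of the size rule were Wdr59 (1.00), F3 (1.01) and Ctla2b (1.01) just inside and Ripk2 (0.99), Pla2g4a (0.98) and Maff (0.98) just outside.

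Promoter stretches are shown for 3 induced genes from each side of the split. They were picked after the search because they hold the cores, to show where these lie, and do not stand for their groups: of the 64 induced genes with a larger response and a window, only Il6, Cxcl1 and Cxcl2 hold a kappa B core. The counts over each group follow. They run from 240 to 20 bases before the transcription start and were taken from RefSeq on GRCm38.p6, a later build than the mm9 of the expression files. Cxcl10 lies at chr5:92348910-92349129 (minus strand), Ifit3 at chr19:34583289-34583508 (plus strand) and Gbp5 at chr3:142496694-142496913 (plus strand). These 3 had smaller responses in the libraries labelled Sema6D-/-. Il6 lies at chr5:30012874-30013093 (plus strand), Cxcl1 at chr5:90891005-90891224 (plus strand) and Cxcl2 at chr5:90903659-90903878 (plus strand), and these had larger ones. Capitals mark matches to the core of the interferon-stimulated response element (ISRE, GAAA, any 2 bases, GAAA) or of the kappa B site of NF-kB (GGGA, any 2 bases, TTCC), on either strand. Each line reads 5′ to 3′ on the gene's strand.
Cxcl10: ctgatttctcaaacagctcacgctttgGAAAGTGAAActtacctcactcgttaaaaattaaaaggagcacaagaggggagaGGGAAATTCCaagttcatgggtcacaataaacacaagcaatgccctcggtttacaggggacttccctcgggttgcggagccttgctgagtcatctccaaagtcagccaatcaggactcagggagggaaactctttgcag
Ifit3: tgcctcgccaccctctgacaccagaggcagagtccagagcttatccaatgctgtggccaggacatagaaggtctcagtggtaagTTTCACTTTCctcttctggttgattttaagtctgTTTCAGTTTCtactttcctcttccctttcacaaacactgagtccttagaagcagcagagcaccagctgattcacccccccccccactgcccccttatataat
Gbp5: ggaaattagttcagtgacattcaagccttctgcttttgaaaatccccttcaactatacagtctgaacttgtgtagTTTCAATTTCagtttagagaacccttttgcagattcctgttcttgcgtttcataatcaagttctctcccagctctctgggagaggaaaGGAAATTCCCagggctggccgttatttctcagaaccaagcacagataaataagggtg
Il6: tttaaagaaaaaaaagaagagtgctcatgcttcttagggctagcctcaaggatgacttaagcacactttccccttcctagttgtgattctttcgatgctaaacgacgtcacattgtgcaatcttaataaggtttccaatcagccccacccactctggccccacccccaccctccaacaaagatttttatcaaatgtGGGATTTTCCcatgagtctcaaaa
Cxcl1: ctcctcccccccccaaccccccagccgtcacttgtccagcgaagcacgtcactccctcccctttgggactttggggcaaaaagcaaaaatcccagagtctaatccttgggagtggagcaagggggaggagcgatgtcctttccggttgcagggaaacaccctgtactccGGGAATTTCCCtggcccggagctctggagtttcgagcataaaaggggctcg
Cxcl2: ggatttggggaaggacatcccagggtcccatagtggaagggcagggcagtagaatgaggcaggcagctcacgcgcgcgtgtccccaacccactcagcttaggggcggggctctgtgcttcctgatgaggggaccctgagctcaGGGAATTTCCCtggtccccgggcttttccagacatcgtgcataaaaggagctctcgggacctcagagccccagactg
Cxcl10 and Gbp5 hold 1 core of each kind, Ifit3 holds 2 ISRE cores and no kappa B core, and Il6, Cxcl1 and Cxcl2 hold a kappa B core and no ISRE core. In Cxcl1 and Cxcl2 the kappa B core matches in 2 overlapping frames.

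Counts over 300-base windows (250 bases before to 50 after the start, 1 per gene) set these in context. The ISRE core was in 3.99% of all 27025 windows, in 4.47% of the 6191 members with a window and in 11.9% of the 898 such members raised by LPS. Among members raised by LPS whose response was smaller under the Sema6D-/- label it was in 10 of 15, namely Cxcl10, Gbp2, Gbp5, Ifi205, Ifi208, Ifit1, Ifit1bl1, Ifit3, Ifit3b and Slamf8. These 10 are not separate cases, since 4 Ifit genes are adjacent and the Gbp and Ifi2 genes are related. The value of Ifi208 also rests on the added constant. After rescaling the members raised less numbered 35, and cores were not counted over these. Among members raised by LPS with the larger response the ISRE core was in 8 of 64 (12.5%). The 23 members with a window that LPS lowered further held 0 cores of any of the 3 motifs. Over all members with a window the shares were 4.47% (ISRE), 1.76% (kappa B) and 6.61% (AP-1, TGANTCA). At such shares few matches fall in 23 windows, so nothing is read from the 0.

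The kappa B core was in 1.63% of all windows, in 3.01% of members raised by LPS, in 4 of the 15 (Cxcl10, Gbp2, Gbp5 and Slamf8) and in 3 of the 64 (4.69%; Cxcl1, Cxcl2 and Il6). The AP-1 core TGANTCA was in 8.97% of all windows, in 10.1% of members raised by LPS, in 6 of the 15 and in 7 of the 64 (10.9%). The shares among the 64 were thus near those of all members raised by LPS for each of the 3 motifs. A gene can count for several motifs. A match is only a run of letters, and its absence says only that these letters are not in this window. A RefSeq window of Ccl2 was not used here.

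In the LPS-level pattern the genotypes started close and parted with LPS. Ptgs2, the inducible cyclooxygenase that starts prostaglandin synthesis, went from 6.29 to 107 FPKM with LPS in WT and from 5.67 to 495 in the libraries labelled Sema6D-/-. Its starting levels were close, and the LPS level stood apart. The difference of responses was 2.33, and without an added 1 it was 2.36 with a 95% counting interval of 2.20 to 2.52. Such intervals cover the counting of fragments only, not variation between cultures.

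Nlrc4, an inflammasome protein of the response to bacterial flagellin and secretion systems, was induced in the libraries labelled Sema6D-/- and level in WT. It was at 7.22 and 6.50 FPKM in WT without and with LPS and at 8.33 and 39.8 under the other label, a difference of 2.26. Tnfsf9, the ligand of the co-stimulatory receptor CD137, went from 7.41 to 28.3 in WT and from 7.26 to 92.5 (difference 1.70). Il6, a cytokine of fever and the acute phase response, went from 0.759 to 169 FPKM in WT and from 1.28 to 732. Its difference of 1.73 became 1.36 (0.54 to 2.17) without the added 1, since the unstimulated libraries held 22 and 27 fragments.

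Others of the LPS-level group began near 0. Ptx3, a soluble pattern recognition protein, was listed at 0 in both unstimulated libraries and at 1.18 and 11.8 FPKM with LPS in WT and under the Sema6D-/- label. Il12a, the p35 chain of the cytokine IL-12, was at 0.0604 and 0.923 FPKM in WT and at 0.0832 and 7.18 (difference 2.06). Rgs16, a brake on G protein signalling, had 1.69, and Kynu, an enzyme of tryptophan breakdown, 1.46. These genes reached 5 FPKM only in the library labelled Sema6D-/- with LPS, as did 26 of the 35 members past the size rule that reached 5 FPKM in 1 library. A gene that entered in that way had to differ, so nothing is drawn from their number.

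Further LPS-level genes were Cd83, an activation marker of antigen-presenting cells (5.89 to 29.8 FPKM in WT and 5.53 to 65.8 in the libraries labelled Sema6D-/-, difference 1.20, or 0.97 after rescaling to a common FPKM total), and Hdc, which makes histamine (1.17, or 0.95). Srebf1, a transcription factor of lipid synthesis, stayed at 16.7 and 15.6 FPKM in WT and went from 20.6 to 49.1 in the libraries labelled Sema6D-/- (1.30). Tagap1, at 1.53 and 1.03 FPKM in WT and at 3.17 and 28.5, had the largest difference of all members, 3.14. It and Gm4841 (2.23) belong to groups of similar genes, so assignment of their fragments is uncertain. Both reached 5 FPKM only in the library labelled Sema6D-/- with LPS, so nothing is drawn from their rank. With 0.1 added Gm4841 had 1.17, on 3 fragments in unstimulated WT cells. Its plain FPKM ratio of LPS to no LPS was not larger under the Sema6D-/- label, so its value rests on the added 1.

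**Figure D2:**
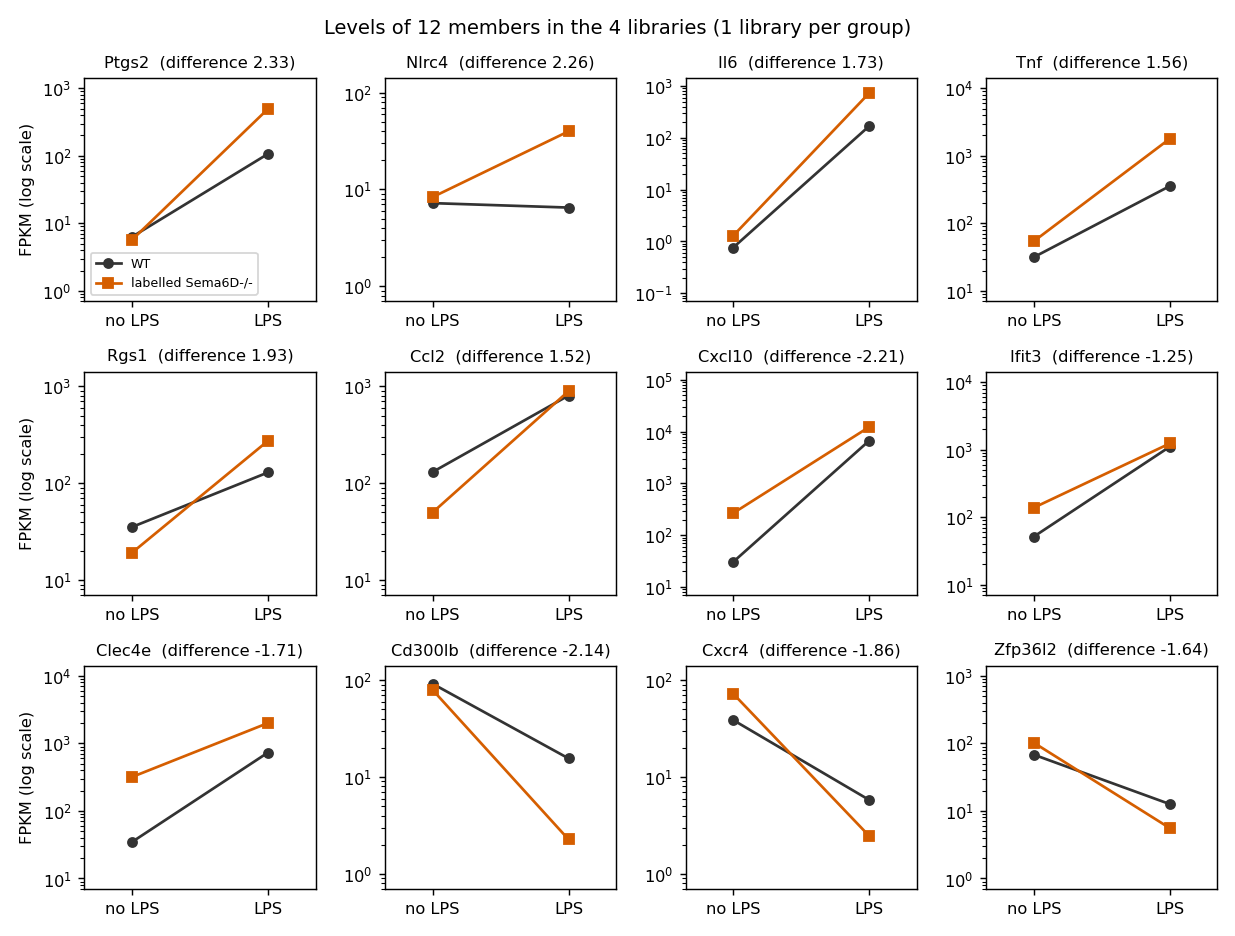
FPKM of 12 members without and with LPS on a log axis, in WT (black circles) and in the libraries labelled Sema6D-/- (orange squares), 1 library per point. Ptgs2, Nlrc4 and Il6 part mainly with LPS (differences 2.33, 2.26 and 1.73), Ccl2 and Ifit3 part without LPS and meet with it (1.52 and -1.25), Rgs1, Cxcr4 and Zfp36l2 cross, and Cxcl10 and Clec4e keep their order while the gap narrows (-2.21 and -1.71).

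In 9 higher differences the gap lay mainly in a lower start. Ccl2, a chemokine for monocytes, went from 130 to 805 FPKM in WT and from 49.8 to 894 in the libraries labelled Sema6D-/-. Its LPS levels were close (0.15), its baseline difference was -1.37 and its difference of responses 1.52. Egr1, an immediate early transcription factor, went from 12.4 to 25.4 in WT and from 5.33 to 31.1 (difference 1.36, baseline -1.08). The LPS-level difference of Egr1 was 0.28.

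Gdf15, a stress-induced cytokine of the TGF-beta family, showed the same pattern. It was at 17.3 FPKM in WT without LPS and at 4.49 with LPS, and at 4.46 and 4.51 in the libraries labelled Sema6D-/-, which gave a difference of 1.75. Phlda1, a pleckstrin homology-like protein, had 1.34 and Procr, the receptor of protein C, 1.12 (0.90 after rescaling). Pmaip1, a pro-apoptotic BCL2 family protein, had 1.10 (0.94 after rescaling). Retnlg, a resistin-like protein known from neutrophils, was at 5.84 and 3.79 FPKM in WT and at 2.43 and 4.31 (difference 1.15). Beside it, the summed neutrophil markers were lower in both libraries labelled Sema6D-/-, as given above, and their part in this value was not tested.

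In 28 members the order of the genotypes crossed, from lower without LPS to higher with LPS under the Sema6D-/- label. Rgs1, which limits signalling of chemokine receptors, went from 35.3 to 129 FPKM in WT and from 19.1 to 274 in the libraries labelled Sema6D-/-. The baseline difference was -0.85, the LPS-level difference 1.08 and the difference of responses 1.93. Nfkbiz, the IkB zeta protein needed for Il6 induction, went from 51.3 to 158 FPKM in WT and from 28.9 to 251 (difference 1.47). Zc3h12a, an RNase that degrades cytokine transcripts, had 1.16 (0.95 when libraries were rescaled to a common FPKM total).

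Ccl3 and Ccl4, chemokines for monocytes and T cells, belonged to the same set. Ccl3 went from 174 to 3625 FPKM in WT and from 131 to 7000 in the libraries labelled Sema6D-/- (1.35), and Ccl4 had 1.08 (0.85 after rescaling, under the size rule). Id2, an inhibitor of basic helix-loop-helix factors, was at 275 and 150 FPKM in WT and at 162 and 198 (1.16, or 0.93 after rescaling). Slc7a11, the cystine transporter (1.12), Ppp1r15a, which reverses the stress block on translation (1.06), and Cdkn1a, the cell cycle inhibitor p21 (1.04), were also in it. Rescaled to a common total these 3 had 0.91, 0.84 and 0.82. H2-Q6 (3.12) rested on 1 to 174 fragments per library, and its near-identical neighbours in the MHC make its value uncertain. It reached 5 FPKM only in the library labelled Sema6D-/- with LPS, so nothing is drawn from its call.

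Another 28 members were higher in the libraries labelled Sema6D-/- in both states and more so with LPS. Tnf, the tumour necrosis factor, went from 31.5 to 357 FPKM in WT and from 54.2 to 1794. Its baseline difference was 0.76, its LPS-level difference 2.33, and its difference of responses 1.56, or 1.55 (1.44 to 1.66) without the added 1. Cxcl2 and Cxcl1, chemokines for neutrophils whose promoters are shown above, had 1.41 and 1.94. Cxcl2 went from 10.4 to 105 FPKM in WT and from 24.5 to 625, and Cxcl1 from 1.74 to 12.3 and from 2.99 to 73.3. Both were highest in the stimulated library labelled Sema6D-/-.

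Mertk, a receptor for apoptotic cells, was at 11.7 and 14.9 FPKM in WT and at 23.5 and 61.3 in the libraries labelled Sema6D-/- (1.02, or 0.77 after rescaling to a common total). Il1b, the inflammasome cytokine, had 1.03. It went from 7.88 to 177 FPKM in WT and from 26.1 to 1110. Without the added 1 its difference was 0.92 (0.71 to 1.13) and after rescaling 0.78, both under the size rule. Ccl22, a chemokine for regulatory T cells, had 1.44 on 27 to 456 fragments per library. Elavl4 (1.87) and Slc28a2b (2.18) were at most 0.0419 FPKM in WT and at 1.10 to 8.95 in the libraries labelled Sema6D-/-. Both reached 5 FPKM only in the library labelled Sema6D-/- with LPS, so nothing is drawn from their calls.

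The last 5 higher differences belonged to genes that stayed lower in the libraries labelled Sema6D-/- in both states. Ccl7, a monocyte chemokine beside Ccl2 in the genome, went from 70.7 to 890 FPKM in WT and from 13.5 to 468. Its baseline difference was -2.31 and its LPS-level difference -0.92, so a response larger by 1.38 still ended at the lower level. Thbs1, the matrix protein thrombospondin, went from 62.9 to 89.1 and from 8.20 to 26.5 (1.09, or 0.90 after rescaling). Mt2, a metal-binding metallothionein (1.62), and Mmp27, a matrix metalloproteinase (1.08), followed. Amd2 (1.49) has a near-identical copy and is uncertain.

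On the other side were 18 induced genes with smaller responses. In the libraries labelled Sema6D-/-, 12 of them were higher in both states and more so without LPS, 5 were in the baseline pattern, higher without LPS and between -0.09 and 0.35 with it, and 1, Ifi208, was lower. Cxcl10, a chemokine for activated T cells, went from 30.5 to 6696 FPKM in WT and from 267 to 12295 in the libraries labelled Sema6D-/-. It was higher there in both states, by 3.09 without LPS and 0.88 with LPS, and the difference of responses was -2.21. Without the added 1 it was -2.25 (-2.36 to -2.15). A smaller ratio thus went with a higher final level.

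Clec4e, the Mincle receptor for mycobacterial glycolipids, went from 34.6 to 732 FPKM in WT and from 318 to 2002 (-1.71). Gpr84, a receptor for medium-chain fatty acids, went from 12.6 to 256 and from 112 to 619 (-1.79). Gbp2, an interferon-induced GTPase, went from 20.3 to 681 and from 88.9 to 1244 (-1.21). In all 3 the library labelled Sema6D-/- was higher in both states. Gbp5 (-1.06), the PYHIN gene Ifi205 (-1.14) and the NF-kB subunit Relb (-1.11) had the same form, and Nfkbie, an inhibitor of NF-kB, had -1.03.

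A second form was a higher start and a close end. Ifit3, an interferon-induced protein with tetratricopeptide repeats, went from 51.3 to 1105 FPKM in WT and from 138 to 1234 in the libraries labelled Sema6D-/- (-1.25, LPS-level difference 0.16). Tlr2, the receptor of bacterial lipoproteins, went from 57.0 to 330 and from 148 to 363 (-1.23, LPS-level difference 0.14). Slamf8, a receptor of myeloid cells, had -1.07. Ifit3b (-1.21) is a near copy of Ifit3, and fragments may have been divided between them.

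Ifi208, another PYHIN gene, had the lowest value of all members, -3.37. It was at 5.72 and 151 FPKM in WT and at 0.0480 and 1.30 (3 and 60 fragments) in the libraries labelled Sema6D-/-. With 0.1 added in place of 1 the value was -1.46. The plain FPKM ratio of LPS to no LPS was nearly the same in both genotypes. Both the size and the direction of the value thus rest on the added constant. Ifi208 also belongs to a family of similar genes. H2-Q8 (-1.95), of the MHC region, was at 0.0148 and 7.39 FPKM in WT and at 4.53 and 10.8, and is uncertain for the same reason.

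LPS lowered 30 members further in the libraries labelled Sema6D-/-, 13 of them in the LPS-level pattern and 12 with a crossed order. Cd300lb, an activating myeloid receptor, went from 92.0 to 15.6 FPKM in WT and from 79.6 to 2.27 (100 fragments) in the libraries labelled Sema6D-/-. The baseline difference was -0.21, the LPS-level difference -2.34 and the difference of responses -2.14. Tmem86a, a lysoplasmalogenase, went from 66.5 to 19.8 and from 58.2 to 4.47 (-1.74). Arl11, a small GTPase of the ARF-like family, went from 43.0 to 11.9 and from 43.5 to 3.57 (-1.51).

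Gmnn (geminin), an inhibitor of DNA replication licensing, had -1.64, and Arhgap27, a GTPase-activating protein, -1.66. Il6ra, a chain of the interleukin 6 receptor, went from 26.6 to 10.4 FPKM in WT and from 32.2 to 5.48 in the libraries labelled Sema6D-/- (-1.08). Slc40a1, the iron exporter ferroportin, went from 10.6 to 4.47 and from 9.96 to 1.51 (-1.03). Each of these 4 was lower with LPS in both genotypes and lowest in the stimulated library labelled Sema6D-/-.

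In 20 members with a lower difference the order crossed downward, and 12 of these belonged to the 30 that LPS lowered further. Cxcr4, the receptor that holds cells in bone marrow, went from 38.8 to 5.80 FPKM in WT and from 72.7 to 2.46 in the libraries labelled Sema6D-/- (-1.86). Zfp36l2, which promotes decay of AU-rich transcripts, went from 68.2 to 12.6 and from 102 to 5.56 (-1.64). Both fell with LPS in each genotype, and further under the Sema6D-/- label. Ypel3 had -1.72, and Tfeb, a transcription factor of lysosomal genes, -1.04. Fos, a component of AP-1, was at 59.3 and 86.3 FPKM in WT and at 73.2 and 52.5 (-1.01).

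Cx3cr1, the fractalkine receptor, kept its order. It went from 5.07 to 2.44 FPKM in WT and from 45.0 to 5.15 in the libraries labelled Sema6D-/-, so the baseline difference of 2.92 narrowed to 0.84 with LPS (difference of responses -2.08). Nr1h3, the oxysterol receptor LXR alpha, was level in WT at 28.5 and 30.2 FPKM and went from 33.6 to 16.0 in the libraries labelled Sema6D-/- (-1.11).

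By gene list, cytokines and CC chemokines had the highest medians. Of 21 inflammatory cytokines at 5 FPKM or more, 8 had a difference 2-fold or more higher (1.50% of all members did) and 0 lower, with a median of 0.94 against 0.01 over all members. The median baseline difference was 0.34 and the median LPS-level difference 1.48, and 13 of 21 were 2-fold or more higher with LPS (2.97% of all members were). With 0.1 added in place of 1 the median was 0.38 and the count 5, and after rescaling they were 0.62 and 6. Of 10 CC chemokines 5 had higher and 0 lower differences (median 0.82, or 4 and 0.59 after rescaling), on a baseline median of -0.52 and an LPS-level median of 0.19. In each state 4 CC chemokines differed 2-fold or more between genotypes, 1 higher and 3 lower without LPS and 2 higher and 2 lower with it. Ccl5 ran against its list with -0.72, from 39.5 to 2501 FPKM in WT and from 167 to 6314 in the libraries labelled Sema6D-/-. Il12a among the cytokines and Ccl22 among the CC chemokines reached 5 FPKM only in the library labelled Sema6D-/- with LPS. Nothing is drawn from their calls.

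CXC chemokines were divided, with 3 of 9 higher and 1 lower (median 0.31, or 0.09 after rescaling). With 0.1 added 2 were higher, since Cxcl9 then had 0.61. Immediate early and AP-1 genes had a median of 0.52 with 18 of 22 above 0, but only Egr1 and Dusp2, a phosphatase of MAP kinases, were past the size rule upward and Fos downward. Dusp2 had 1.04, and 0.83 after rescaling, and Fos had -0.99 when libraries were centred on their medians, so neither call held throughout. Their median was -0.38 without LPS and 0.12 with LPS. Inducible inflammatory enzymes and effectors held 8 higher and 1 lower difference (Hp, haptoglobin, -1.03) of 27, around a median of 0.11. Ptx3, counted among the 8, was a member only through its level in the library labelled Sema6D-/- with LPS. Rescaled to a common FPKM total this list held 4 higher and 6 lower around -0.12, so its balance turned. NF-kB pathway and feedback genes held 2 and 2 of 30 around 0.09 (1 and 2 around -0.15 after rescaling). The 2 higher were Nfkbiz and Zc3h12a and the 2 lower Relb and Nfkbie.

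Antiviral interferon-stimulated genes lay on the lower side as a body. Of 38, 33 had a difference below 0 (3663 of all 7582 members did), 4 were lower by 2-fold or more (Ifit3, Ifit3b, Ifit1 and Oasl1; 0.818% of all members; 7 after rescaling and 3 when centred on the median) and 0 higher, with a median of -0.44. Without LPS 17 of the 38 were 2-fold or more higher in the library labelled Sema6D-/- (2.55% of all members were), and with LPS 1 was, Xaf1. The list median of the genotype difference was 0.84 without LPS and 0.46 with it. Cmpk2, an antiviral nucleotide kinase just short of the rule, went from 29.8 to 2163 FPKM in WT and from 91.4 to 3339 (-0.96). The same form held for Isg15, a ubiquitin-like modifier (-0.58).

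Guanylate-binding and immunity-related GTPases, which attack the vacuoles of pathogens, had the lowest median, -0.62 over 13 members, with 12 below 0. Gbp2 and Gbp5 were lower by 2-fold or more, and after rescaling 4 members were. Tgtp1 (1.09) was the exception, and without the added 1 its value was -0.19 (-1.31 to 0.94) on 9 unstimulated WT fragments. PYHIN genes, sensors of nucleic acids, had 2 of 9 lower (median -0.37). Chemoattractant receptors and RGS proteins held 2 higher differences (Rgs1 and Rgs16) and 4 lower ones (Cx3cr1, Cxcr4, Gpr84 and Cmklr1) of 19. Rgs16 was a member only through its level in the library labelled Sema6D-/- with LPS. Of the 114 higher differences 36 (31.6%) were in any list, and of the 62 lower ones 24 (38.7%), against 445 of all 7582 members (5.87%). Since the lists were chosen with results of these data known, nothing is read from these shares.

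**Figure D3:**
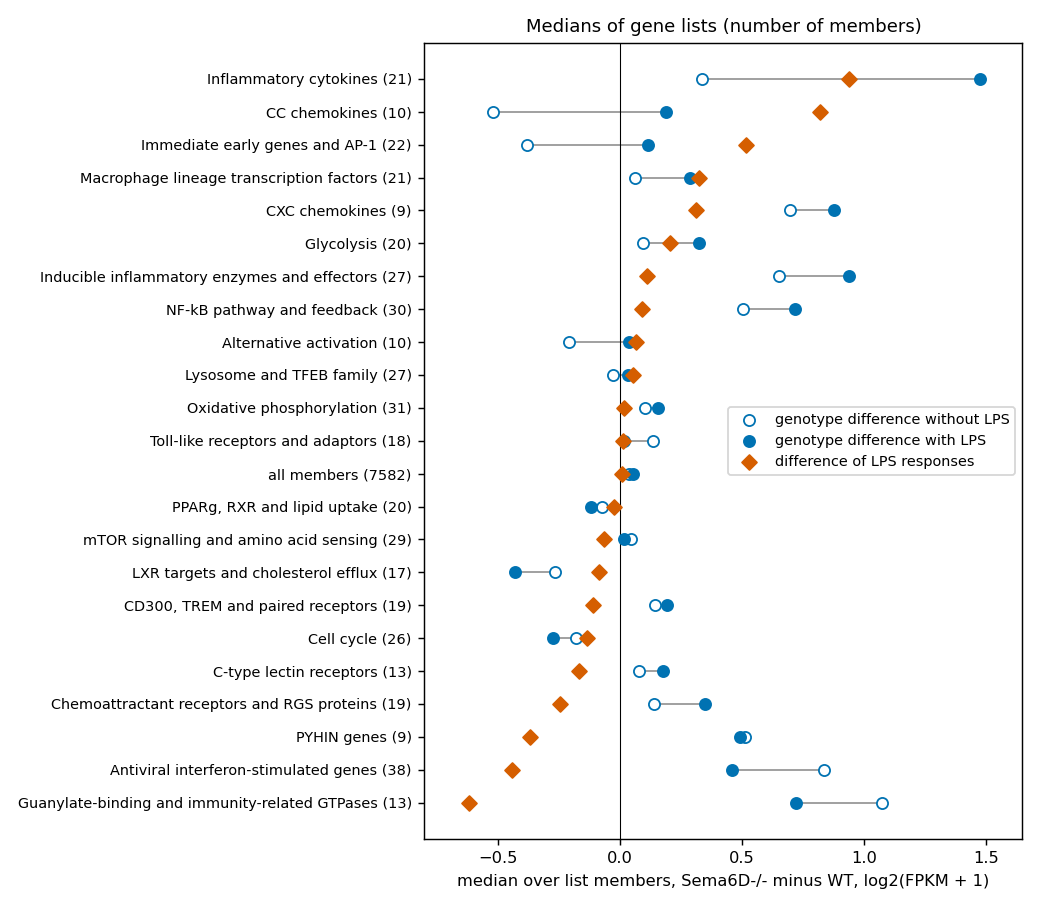
Medians over the members of 22 gene lists and over all members, labelled Sema6D-/- minus WT in log2(FPKM + 1): genotype difference without LPS (open circles), with LPS (filled circles) and their gap, the difference of responses (diamonds). Inflammatory cytokines (0.94) and CC chemokines (0.82) lie highest and the interferon-induced lists lowest (-0.44 and -0.62). After rescaling to a common FPKM total the diamonds of inducible enzymes, NF-kB, Toll-like receptors, glycolysis, lysosome, alternative activation and oxidative phosphorylation turn negative.

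Lists of metabolism and cell identity held few members past the size rule, and their medians ran from -0.14 to 0.32. Lineage transcription factors had 1 higher difference of 21 (Id2), with a median of 0.32 (0.10 after the same rescaling) and 14 of 21 above 0. Glycolysis had 17 of 20 above 0 and a median of 0.20 (-0.02 after rescaling), with 1 member past the rule, Pfkfb4, a regulator of the pathway (-1.16). The 75th percentile of all members was 0.20. The PPARg list, the mTOR list and oxidative phosphorylation had 0 members past the size rule of 20, 29 and 31. Their medians were -0.02, -0.06 and 0.02. After rescaling these were -0.24, -0.27 and -0.21, and the PPARg list held 1 lower member. LXR targets held Srebf1 and Mertk upward and Nr1h3 downward of 17 (median -0.09). After rescaling 1 was higher and 3 were lower around -0.31, so the balance of this list turned. Lysosome genes had 1 lower of 27 (Tfeb, median 0.05, or -0.17 after rescaling). Cell cycle genes had 1 of 26 (the thymidine kinase Tk1, -1.10, median -0.14, or -0.34 after rescaling).

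Toll-like receptors and adaptors had 1 lower difference of 18, Tlr2 (median 0.01, or -0.20 after rescaling). Tlr4 itself was at 22.1 and 26.4 FPKM in WT and at 13.6 and 17.8 in the libraries labelled Sema6D-/-, a difference of 0.12. C-type lectin receptors had 1 of 13 (Clec4e, median -0.17, or -0.37 after rescaling). CD300, TREM and paired receptors had 1 higher, the inhibitory receptor Pilra (1.10, or 0.87 after rescaling), and 1 lower, Cd300lb, of 19. Their median was -0.11, or -0.34 after rescaling. Alternative activation genes had 2 higher of 10, Ccl22 and Cish, around 0.07 (1 higher around -0.12 after rescaling). Cish had 0.72 after rescaling and 0.59 with 0.1 added, under the size rule. Ccl22 was a member only through its level in the library labelled Sema6D-/- with LPS. Nothing is drawn from the count of 2.

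Some genes with a large genotype difference had hardly any difference of responses. Cd36, a fatty acid transporter, was at 277 and 263 FPKM in WT and at 22.1 and 27.6 in the libraries labelled Sema6D-/-, about equally far apart in both states (-3.59 and -3.20, difference of responses 0.38). Pparg, the lipid-sensing nuclear receptor, went from 16.2 to 7.11 in WT and from 5.66 to 2.81 (0.28). Il10, an anti-inflammatory cytokine, went from 13.5 to 96.7 and from 5.26 to 39.1 (-0.07). Each was lower under the Sema6D-/- label in both states. Mtor stayed at 4.22 to 5.62 FPKM in all 4 libraries (-0.06).

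For genes near 0 without LPS the added 1 sets the value. Il1a, an alarmin cytokine, was at 0.146 and 41.4 FPKM in WT and at 1.21 and 403 in the libraries labelled Sema6D-/-. Its difference was 2.31 with 1 added and 0.24 (-0.85 to 1.32) without, on 8 fragments in unstimulated WT cells. Cxcl9, a chemokine induced by interferon gamma, had 1.77 and 0.10 (-0.76 to 0.95), and Cish 1.01 and 0.37. Without the added 1 these genes were higher under the Sema6D-/- label in both states. The genotype difference without and with LPS was 3.05 and 3.28 for Il1a and 2.41 and 2.51 for Cxcl9. For Cish it was 1.08 and 1.45. The level thus differed by genotype before and after LPS, while the ratio of induction did not detectably differ at this depth.

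For a further pair of genes under the size rule the added 1 also moved the value. Nos2, the inducible nitric oxide synthase, had 0.90 with 1 added and 0.08 (-0.33 to 0.50) without, an interval that includes 0. Il12b, the p40 chain of IL-12 and IL-23, turned sign, from 0.56 to -0.97 (-1.85 to -0.09), an interval below 0. Over all members past the size rule, 102 of 114 higher and 61 of 62 lower differences also passed with 0.1 added (1.35% and 0.805% of members). Where all 4 libraries held more than 3 fragments, the counting interval lay beyond 0 for 92 of 102 higher and 56 of 58 lower differences. It lay beyond 2-fold for 46 and 35.

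**Figure D4:**
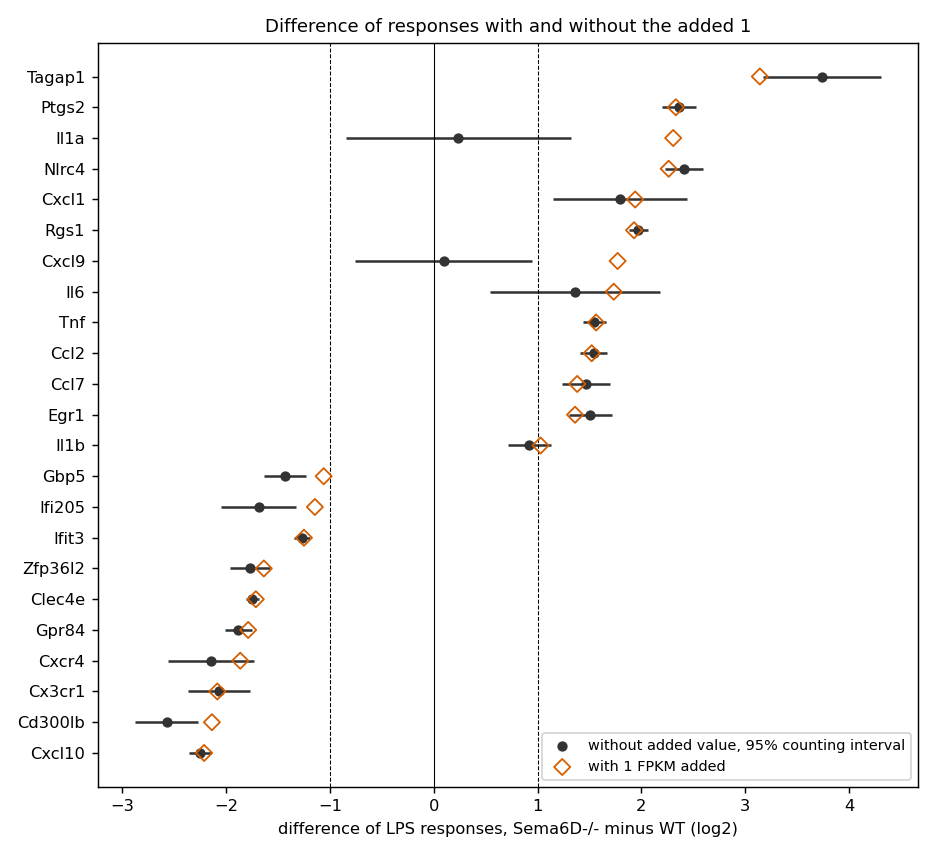
Difference of LPS responses (labelled Sema6D-/- minus WT, log2) for 23 members, with 1 FPKM added (open diamonds) and without an added value (points with 95% counting intervals, which do not cover variation between cultures). Dashed lines mark 2-fold. The 2 values nearly coincide for Ptgs2, Tnf, Ccl2, Ifit3 and Cxcl10 and part for Il1a (2.31 and 0.24) and Cxcl9 (1.77 and 0.10), whose intervals include 0.

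In RefSeq gene order 9 runs of adjacent members past the size rule were found, 6 of them with the same direction and 3 with opposite ones. On chromosome 19 the run Ifit3, Ifit1bl1, Ifit3b and Ifit1 had lower differences throughout. On chromosome 11 Ccl2 and Ccl7, and separately Ccl3 and Ccl4, had higher ones, as did Il1a and Il1b on chromosome 2, Tnfsf8 and Tnc on chromosome 4 and Cxcl1 and Cxcl2 on chromosome 5. Cxcl9 and Cxcl10, also neighbours on chromosome 5, differed in sign (1.77 and -2.21), although without the added 1 Cxcl9 was near 0. Dr1 and Atp5k on chromosome 5 and Arl11 and Kpna3 on chromosome 14 differed in sign too. Among the 10 nearest members on each side of Sema6d, 3 had higher differences (1.50% of all members did), namely Slc28a2b, Bloc1s6 (a subunit of a vesicle-trafficking complex, 1.11) and Hdc, and 0 lower ones. After rescaling Bloc1s6 had 0.86 and Hdc 0.95, under the size rule. Slc28a2b was a member only through its level in the library labelled Sema6D-/- with LPS. Nothing is drawn from the count of 3. Of 220 X-linked protein-coding genes at 5 FPKM or more, which were not members, 0 were higher and 1 (Sash3) lower, against 1.50% and 0.818% of members.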

How the data were processed

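Messenger RNA was measured in 4 stranded libraries, 1 per group. The deposited values were FPKM per RefSeq transcript. Per the submitters' processing notes, the authors used Cuffnorm 2.2.1, TopHat2 2.0.13, Bowtie2 2.2.3 and SAMtools 0.1.19, on the build mm9. Options, annotation version and scaling are not given in the sources used here. Of 34487 transcripts per library 34163 were named through RefSeq, 166 through GENCODE vM21, and 158 were left out. FPKM were summed per gene, which joins several transcripts for 2519 of 7582 members.

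Differences were computed with Python 3.11.15 and pandas 2.3.3 as log2((FPKM + 1)/(FPKM + 1)), which understates each single change of low genes. A difference of 2 responses can instead be overstated, as for Il1a (2.31 with 1 added and 0.24 without). A size rule of 2-fold stood in place of a test, since 1 library per group allows none. Depth was estimated from single-transcript genes: FPKM times effective length fell on whole fragments, within 0.1, for 73.2 to 74.9% of low values, against 20% by chance. Intervals (95%, log scale, no added value) rest on these fragments and were given where all 4 libraries held more than 3. The computation was tested on simulated data.

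The members and lists were chosen with earlier results of these data known. Genes were named by rule: the 15 highest and 15 lowest differences, the 5 largest of each pattern and sign, up to 4 per list, and 14 set genes (Arg1 among them stayed at or below 0.635 FPKM). A few genes that this rule names are not reported here. Other names were chosen after their values were seen. Alternatives were added constants of 0.1 and 5, filters of 1, 20 and none, a common FPKM total, centring on the median, and single-transcript genes.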

Additional observations from a re-analysis of the deposited data

Results flagged for a closer look

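For 3 members the LPS response had opposite signs in the genotypes, by at least 0.5 log2 units each way, and with 1 library per group this difference was not tested. Cytip, which encodes a partner of cytohesins in leukocyte adhesion, went from 4.37 to 1.80 FPKM in WT and from 2.75 to 7.36 in the libraries labelled Sema6D-/-, a difference of 2.10. Cytip reached 5 FPKM only in the library labelled Sema6D-/- with LPS. It entered the members through that level, so nothing is drawn from its call. U2af1, a splicing factor subunit, went from 18.4 to 12.0 and from 16.1 to 23.8, a difference of 1.11. Retnlg had a difference of 1.15 on 21 to 69 fragments per library, and it reached 5 FPKM only in WT without LPS.

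Outside the members, the Y-linked gene Eif2s3y was at 50.4 FPKM in the library labelled Sema6D-/- with LPS and at 33.5 in that without LPS, against 0 and 0.0207 FPKM in WT with and without LPS.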

How the results depend on the processing

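No paired analysis was possible because each group is 1 library and the labels carry no replicate numbers. No count below has a test, and no named gene past the size rule changed sign under any of these alternatives. With 0.1 added, 131 differences were lower (61 of the 62 among them), baseline patterns were 29, same-direction patterns 48 with LPS and 33 without, members raised less 34, lowered further 81 and lowered less 3. With 5 added, 69 were higher and 19 lower. Genotype differences were then 99 and 60 without LPS and 147 and 87 with it, and the patterns held 6 baseline, 16 crossed, and 15 and 8 same-direction. With a filter of 1 FPKM 26 were baseline, and with none 27. A filter of 20 left 73 higher, genotype differences of 64 lower without LPS and 146 higher and 114 lower with it, 10 baseline and 29 crossed. On a common FPKM total 54 were higher and 136 lower, 141 genotype differences were higher with LPS, 27 were baseline, 35 raised more, 35 raised less, 85 lowered further and 1 lowered less, and 22 listed members were higher and 38 lower. Centring on the median gave 1 lowered less. Genes with 1 transcript gave 146 higher and 128 lower with LPS. An alternative chosen after seeing the data, without genes under 1 FPKM in either unstimulated library, gave 15 same-direction and larger with LPS, and 23 listed members higher. The cause of these shifts was not tested beyond the constants and sets themselves.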

Other observations

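Some members were near absent under the Sema6D-/- label in both states. Atp6v0c, a subunit of the proton pump of lysosomes, was at 87.0 and 102 FPKM in WT without and with LPS and at 0.235 and 0.381 (5 and 6 fragments) in the libraries labelled Sema6D-/-. Its difference of responses was -0.06 with 1 FPKM added and 0.47 with none, with a 95% counting interval from -1.22 to 2.16. Rpl3, a ribosomal protein, was at 23.9 and 24.8 FPKM in WT and at 0.193 and 0.260 (5 and 5 fragments) in the libraries labelled Sema6D-/-. Its difference was 0.03 with 1 FPKM added and 0.38 with none, with an interval from -1.43 to 2.18. At this depth a 2-fold difference of responses was therefore not detectable for either gene. Both were chosen after their values were seen, and the assignment of fragments among similar gene copies was not tested.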
